A study of Mus musculus with 6 samples.

Results

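Nuclear RNA of 9 genes known as marks of lipid-associated macrophages was examined in white adipose tissue of mice. The genes were Trem2, Gpnmb, Spp1, Cd9, Lgals3, Lipa, Ctsd, Fabp5 and Cd63. They were picked by symbol, not by level, though with earlier results of these data known. All 9 were found among the 56980 genes that the count matrices listed. In the nuclei kept, Trem2 gave 311, Gpnmb 1552, Spp1 1010, Cd9 13536, Lgals3 2516, Lipa 2282, Ctsd 42, Fabp5 452 and Cd63 6842 UMIs (unique molecular identifiers, each standing for 1 captured RNA molecule).

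Lipid-associated macrophages gather around enlarged or dying adipocytes, take up the lipid that these release and break it down in lysosomes. TREM2 is a surface receptor that binds lipids and lipoproteins and signals through the adaptor TYROBP, and in obese mice its loss is known to prevent much of this macrophage state. GPNMB is a membrane glycoprotein of lysosomes and the cell surface, and SPP1 (osteopontin) is a secreted ligand of CD44 and integrins. LGALS3 (galectin-3) binds sugars on glycoproteins, LIPA hydrolyses cholesteryl esters and triglycerides in lysosomes, and CTSD is a lysosomal protease. FABP5 carries fatty acids in the cytoplasm, while CD9 and CD63 are tetraspanins, membrane proteins of the cell surface and of late endosomes.

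Single nuclei of female C57BL/6J mice were sequenced in 6 libraries, which form 3 groups of 2. The groups are subcutaneous fat from the inguinal pad (SAT) of mice aged 2 months, the same depot of mice aged 24 months, and visceral fat from around the gonads (VAT) of mice aged 24 months. No treatment, transgene or deletion is given for any of these groups, and VAT at 2 months was not analysed here. The older age is 24 months in the labels, which are followed here, and 26 months in the design text. By the study's account 2 mice per age were used, so the depots may share mice, and p-values measure the spread between these libraries only.

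The libraries held 8061862 to 16226690 UMIs, and 27074 nuclei passed the limits on genes, UMIs and mitochondrial RNA. The labels name the cell type as adipocytes, but only 27.0% of these nuclei carried an adipocyte profile. VAT replicate 2 stood apart, since it held 496 of the 498 nuclei named oviduct secretory, 324 of 445 steroidogenic and 148 of 200 multiciliated ones, so the main comparisons of VAT with SAT are also given without it. Libraries shared at most 0.769% of their barcodes.

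Macrophages were found by clustering without the 9 genes and by naming clusters from 12 other markers, so that the genes' own levels did not choose the nuclei. The class held 1031 nuclei, or 3.81% of all, with 148 and 223 nuclei in SAT at 2 months, 61 and 225 in SAT at 24 months, and 209 and 165 in VAT at 24 months (replicates 1 and 2 in this order throughout). Their median depth was between 1345 and 1634 UMIs per nucleus. Each of the 12 markers, such as Adgre1 and Csf1r, was higher in macrophages than in the other nuclei in 6 of 6 libraries, which the naming by these markers largely fixed.

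The first question is in which nuclei the genes are read at all. In the summed counts of all libraries, in counts scaled to the sum of UMIs (CPM, counts per 1e+06 UMIs), 6 of the 9 genes were highest in macrophages among 18 named classes of nuclei. Trem2 was at 79.9 CPM in macrophages and next at 10.9 CPM in mesothelial nuclei, and Gpnmb was at 492 CPM against 109 CPM in fibro-adipogenic progenitors (FAPs), the stromal cells that give rise to adipocytes. Spp1 stood at 485 CPM in macrophages and at no more than 8.34 CPM in any other class. Without SAT 2 months replicate 1 Spp1 in macrophages was at 148 CPM, and in SAT 24 months replicate 1 it was at 0 while other nuclei held 20 UMIs. Without VAT replicate 2 Trem2 was at 65.0 CPM and Gpnmb at 296 CPM, and macrophages held 46.7% of the Gpnmb UMIs. Without VAT replicate 2 the pooled Trem2 level of oviduct secretory nuclei came first, on 1 UMI in 2 nuclei. The order for Trem2 and Gpnmb did not hold in each library. In SAT 24 months replicate 1 Trem2 was at 9.30 CPM in macrophages, on 1 UMI, and at 9.80 CPM in endothelial nuclei, on 2 UMIs. For Gpnmb, in SAT at 24 months macrophages were at 130 and 43.1 CPM, below 203 and 189 CPM in FAPs, while macrophages were the higher class in the other 4 libraries. The plot of levels by class shows the pooled values.

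**Figure D1:**
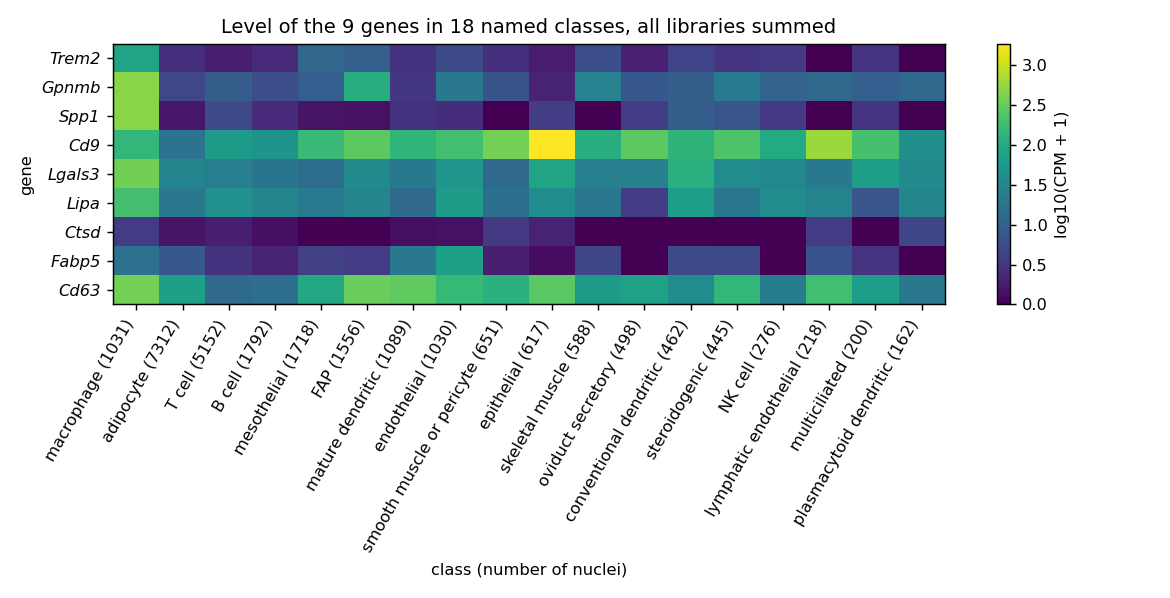
Level of each of the 9 genes (rows) in 18 named classes of nuclei (columns), as log10(CPM + 1) of counts summed over all 6 libraries, with lighter colour for a higher level. In these pooled sums Trem2, Gpnmb, Spp1, Lgals3, Lipa and Cd63 reached their highest level in macrophages, Cd9 in epithelial nuclei and Fabp5 in endothelial nuclei, while Ctsd stayed under 4 CPM in every class.

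Galectin-3 and lysosomal acid lipase RNA were also highest in macrophages but less restricted to them. Lgals3 was at 378 CPM, followed by 119 CPM in conventional dendritic nuclei, and Lipa at 202 CPM, followed by 65.6 CPM in the same dendritic class. Cd63 was the most evenly spread of the 6, at 384 CPM in macrophages, 328 CPM in FAPs and 298 CPM in mature dendritic nuclei. Per library, Cd63 in macrophages ranged from 167 to 582 CPM and in FAPs from 225 to 420 CPM, so that the order of these classes lay within the spread between libraries.

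Cd9 and Fabp5 were not highest in macrophages, and Ctsd gave too few UMIs to place. In the pooled sums Cd9 was highest in epithelial nuclei, at 1862 CPM, then in lymphatic endothelial nuclei, at 600 CPM, and macrophages came 10th with 147 CPM. Steroidogenic nuclei came second, at 955 CPM, when VAT replicate 2 was left out. In the 4 SAT libraries, Cd9 in epithelial nuclei ran from 1628 to 2410 CPM, above every macrophage value of 95.3 to 247 CPM. Fabp5 was highest in endothelial nuclei, at 70.2 CPM, and then in mature dendritic nuclei, at 19.6 CPM, and in macrophages, at 15.8 CPM. This endothelial level rests on SAT 24 months replicate 2 and was 29.5 CPM without that library, still ahead of 20.6 CPM in mature dendritic nuclei. In VAT replicate 2 Fabp5 was lower in endothelial nuclei (5.62 CPM) than in macrophages (40.5 CPM). Ctsd gave 5 UMIs over all macrophage nuclei and 42 over all nuclei.

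Shares of UMIs give the same genes from the side of the tissue. Macrophages, 3.81% of nuclei, held 88.4% of the Spp1, 58.3% of the Gpnmb and 47.3% of the Trem2 UMIs of all kept nuclei. They held 27.6% of Lgals3, 16.3% of Lipa and 10.3% of Cd63 UMIs. The share differed between libraries, from 0% to 96.6% for Spp1, from 13.4% to 79.0% for Gpnmb and from 8.33% to 74.3% for Trem2. For Gpnmb it was lowest in SAT at 24 months, at 23.3% and 13.4%, and for Spp1 the pooled share leans on 1 nucleus with 541 UMIs. By contrast, 50.9% of the Cd9 UMIs were in epithelial nuclei. For Fabp5 37.4% were in endothelial nuclei, but 12.1% without SAT 24 months replicate 2.

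The difference between macrophages and the other nuclei was tested on counts summed per library, with the library as a block (edgeR quasi-likelihood test, Benjamini-Hochberg adjustment over all genes tested, called at an adjusted p under 0.05). Of the 8 members that passed the filter on low counts, 6 were called higher, where 10.9% of the 14569 genes tested were. Spp1 was higher by 6.70 on the log2 scale (SE 0.80, adjusted p = 2.14e-05), Trem2 by 5.03 (SE 0.43, adjusted p = 9.2e-07) and Gpnmb by 4.91 (SE 0.54, adjusted p = 1.02e-05). Lgals3 was higher by 3.50, Lipa by 2.56 and Cd63 by 1.72, with adjusted p-values of 2.45e-06, 0.000136 and 0.000205. Cd9 differed by -0.54 (adjusted p = 0.38) and Fabp5 by 1.40 (adjusted p = 0.17), neither of which was called, and Ctsd did not pass the filter.

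RNA that floats free during capture gives UMIs in nuclei that do not make it, so the share of T cell nuclei with a UMI serves as a background. Of the 1031 macrophage nuclei (median 1467 UMIs), 10.6% held a Gpnmb UMI, 7.95% a Trem2 UMI, 3.01% an Spp1 UMI and 25.3% an Lgals3 UMI. Among 5152 T cell nuclei (median 1325.5 UMIs) the shares were 1.11% for Gpnmb, 0.136% for Trem2, 0.369% for Spp1 and 2.54% for Lgals3. These pooled shares lean on VAT. In the 4 SAT libraries the share of macrophage nuclei with a Gpnmb UMI ran from 2.22% to 4.92% and that of T cell nuclei from 0.560% to 1.29%, while in VAT replicate 2 they were 34.5% and 1.99%. For Spp1 macrophages of SAT 24 months replicate 1 were at 0%, below the 0.560% of its T cell nuclei, and those of the other SAT libraries at 0.897% to 2.03% beside 0.166% to 0.985%, on 2 to 4 macrophage nuclei each. VAT replicate 1 held only 9 T cell nuclei, too few for a background.

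Trem2, Gpnmb and Spp1, the members with the highest pooled shares in macrophages, lie on separate chromosomes (GRCm39, GENCODE annotation): Trem2 at chr17:48653429-48661175 on the forward strand, Gpnmb at chr6:49013426-49047863 on the forward strand, and Spp1 at chr5:104582165-104589235 on the forward strand. The 250 bases before their start sites are shown because these genes were detected together in nuclei, as described below, and because MiT/TFE factors (CACGTG and CATGTG), AP-1 (TGANTCA) and PU.1 (GAGGAAG) are known regulators of lysosomal and macrophage genes. Capitals mark a match on either strand. Positions count back from the start site, with the base before it as -1.
Trem2, chr17:48653179-48653428: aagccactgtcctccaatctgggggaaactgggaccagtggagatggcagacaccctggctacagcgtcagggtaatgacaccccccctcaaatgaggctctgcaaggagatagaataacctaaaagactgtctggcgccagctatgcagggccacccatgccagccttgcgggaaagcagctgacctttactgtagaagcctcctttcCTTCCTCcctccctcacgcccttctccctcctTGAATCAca
Gpnmb, chr6:49013176-49013425: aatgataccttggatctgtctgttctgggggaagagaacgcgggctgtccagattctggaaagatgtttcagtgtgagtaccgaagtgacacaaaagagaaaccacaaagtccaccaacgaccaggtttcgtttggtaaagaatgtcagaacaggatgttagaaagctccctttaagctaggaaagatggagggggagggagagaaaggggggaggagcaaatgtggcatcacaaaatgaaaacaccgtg
Spp1, chr5:104581915-104582164: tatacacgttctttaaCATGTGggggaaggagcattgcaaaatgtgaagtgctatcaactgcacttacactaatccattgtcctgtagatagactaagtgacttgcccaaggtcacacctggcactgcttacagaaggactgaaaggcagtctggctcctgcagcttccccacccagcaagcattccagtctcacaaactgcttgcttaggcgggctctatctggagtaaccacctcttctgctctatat

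The Trem2 window held GAGGAAG on the reverse strand, at -41, and a TGANTCA match at -9, the Spp1 window held CATGTG at -234, and the Gpnmb window held none of the 4 motifs. Among the 250-base windows of 21770 protein-coding genes, 6.26% held CACGTG, 10.5% CATGTG, 6.17% TGANTCA and 10.3% GAGGAAG. Of all 9 members, 1 held each of the first 3 motifs, with CACGTG before Ctsd, and 3 held GAGGAAG. These are matches of letters only.

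Some members share their position with other genes, and the counting of strand was not given in the sources used here. Gpnmb lies whole within the antisense transcript Gm56981, which had 40 UMIs in the kept nuclei, and Ctsd overlaps Gm49369 on the same strand, which had 8 UMIs. Spp1 overlaps Gm42793 on the same strand over 1252 bases, and Gm42793 had 0 UMIs. Of the copies of members, Cd63-ps had 0 UMIs in all barcodes and Fabp5l2 had 8 UMIs in kept nuclei. Cd9 overlaps 4 genes, of which Gm28809 and Gm26728 had 77 and 71 UMIs, and counts of Gm68112 and of Gm68847, the latter on the same strand, were not analysed here. Levels of Ctsd are therefore uncertain, and those of Spp1 and Cd9 could be touched as well.

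Within macrophages the level of each gene was set out library by library, and the plot of macrophage levels shows them all. Trem2 was at 89.1 and 61.9 CPM in 2-month SAT, 9.30 and 28.7 CPM in 24-month SAT, and 111 and 166 CPM in VAT at 24 months. The SAT libraries at 24 months were the lowest pair and did not overlap with either other group, although they rested on 1 and 12 Trem2 UMIs. Gpnmb was at 446 and 186 CPM in 2-month SAT, 130 and 43.1 CPM in 24-month SAT, and 667 and 1623 CPM in VAT. Its 3 groups did not overlap either, with VAT the highest and SAT at 24 months the lowest. Here and below, how many of all genes separate in this way is not given. Separation is thus not shown to be particular to the members.

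Spp1, the secreted ligand, behaved otherwise. It was at 2360 and 164 CPM in 2-month SAT, 0 and 244 CPM in 24-month SAT, and 46.6 and 162 CPM in VAT. SAT at 24 months overlapped with both other groups, and VAT lay just below 2-month SAT. The library at 0 held 61 macrophage nuclei, of which 3 nuclei with an Spp1 UMI would be a share of 4.92%.

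**Figure D2:**
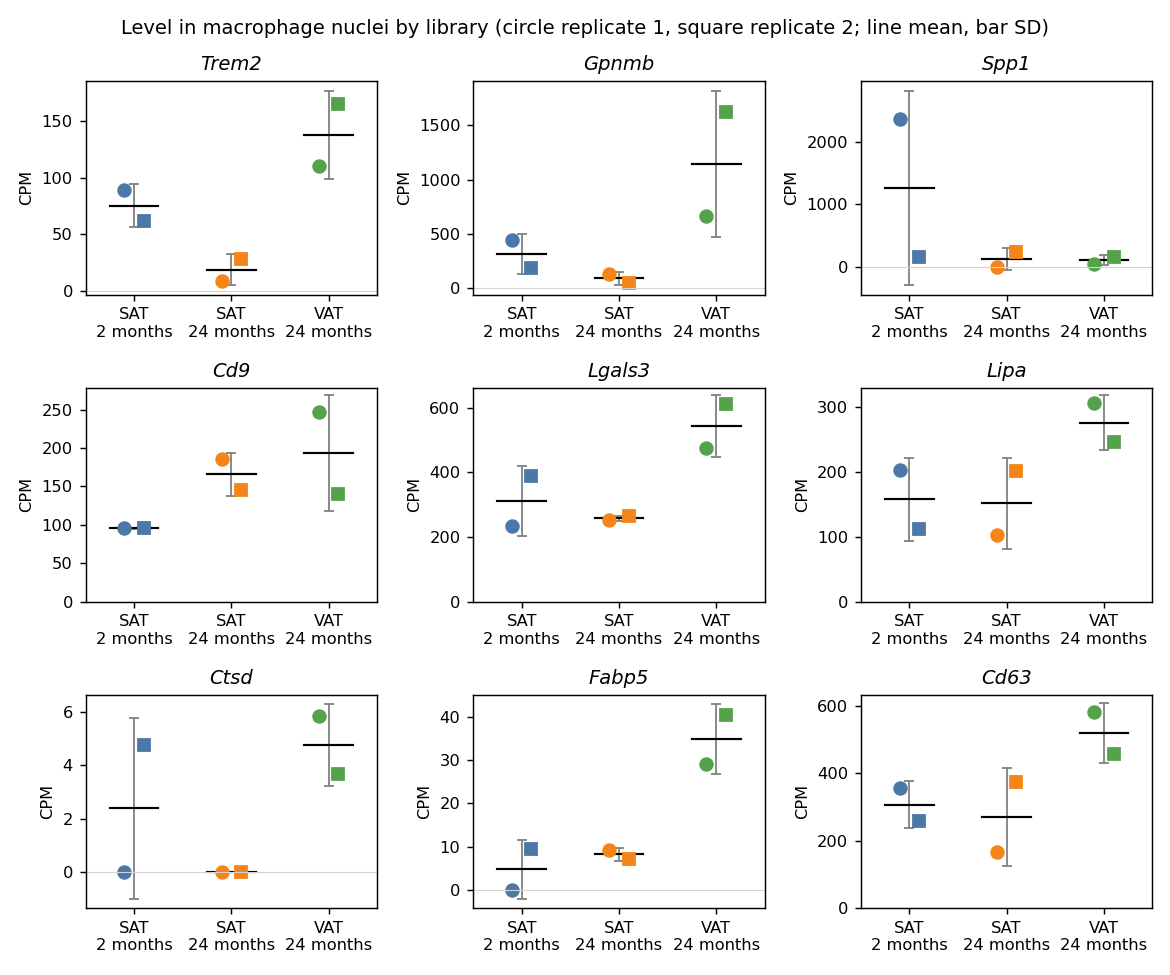
Level of each of the 9 genes in macrophage nuclei, in CPM of counts summed per library, with 1 panel per gene and its own linear axis; points are libraries and bars give the mean ± SD of the 2 libraries of a group. VAT at 24 months lies above SAT at 24 months without overlap for Trem2 and Gpnmb, whereas the Spp1 panel is set by 1 library of SAT at 2 months at 2360 CPM.

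Of the lysosomal and sugar-binding members, Lgals3 was at 235 and 388 CPM in 2-month SAT, 251 and 263 CPM in 24-month SAT, and 475 and 611 CPM in VAT. Lipa was at 203 and 112 CPM, 102 and 201 CPM, and 306 and 247 CPM in the same order. For both, the VAT libraries lay above all 4 SAT libraries, and the SAT groups overlapped.

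The tetraspanin Cd63 was at 356 and 257 CPM in 2-month SAT, 167 and 374 CPM in 24-month SAT, and 582 and 456 CPM in VAT, with VAT again above all SAT libraries. Cd9 was at 96.2 and 95.3 CPM, 186 and 146 CPM, and 247 and 140 CPM. Here SAT at 24 months lay above SAT at 2 months, and VAT overlapped with SAT at 24 months. Fabp5 stayed low, at 0 and 9.53 CPM, 9.30 and 7.18 CPM, and 29.1 and 40.5 CPM, on 29 UMIs in all.

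The first contrast asks how these genes differ between SAT macrophages at 24 and at 2 months. Trem2, Gpnmb and Spp1 had the lowest fitted values, while Lgals3, Lipa and Cd63 lay close to 0. Trem2 was 75.5 ± 19.2 CPM at 2 months and 19.0 ± 13.7 CPM at 24 months (SD, n = 2 each), with a log2 fold change of -1.56 (SE 0.55). Gpnmb was 316 ± 184 and 86.6 ± 61.6 CPM (SD, n = 2 each), with a log2 fold change of -1.97 (SE 0.65).

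None of the 7 members tested was called by edgeR, where 0.066% of the 7572 genes tested in SAT macrophages were. The adjusted p-values were 0.26 for Trem2, 0.24 for Gpnmb and 0.28 for Spp1, and the 3 unadjusted ones, 0.0140, 0.00993 and 0.0184, were the only ones under 0.05. DESeq2 called 0 members as well. Spp1, at a log2 fold change of -3.04 (SE 1.13), moved to -0.10 without SAT 2 months replicate 1 and to -11.43 without SAT 24 months replicate 2. The latter was against a library with 0 UMIs, so that it is no bound. In each 2-month SAT library 1 nucleus held most Spp1 UMIs (541 of 662 and 68 of 69), which limits every Spp1 value here. For the fit without a filter on low counts, given next, the share of all genes called was not counted. Gpnmb was called when either VAT library was left out of the shared fit (adjusted p = 0.038 and 0.026 in edgeR, where 2.99% and 3.2% of all genes were called), and Gpnmb and Spp1 were called when genes with low counts were not filtered out (adjusted p = 0.011 and 4.0e-07 in edgeR).

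The other members had log2 fold changes of 0.85 for Cd9 (SE 0.42), -0.18 for Lgals3 (SE 0.40), 0.14 for Lipa (SE 0.45) and -0.03 for Cd63 (SE 0.46). The median over all 7 was -0.18, beside 0.0057 over all genes tested, and it ranged from -0.72 without SAT 24 months replicate 2 to 0.13 without SAT 24 months replicate 1. The signs of Lgals3, Lipa and Cd63 turned when single libraries were left out. Ctsd and Fabp5 did not pass the filter on low counts.

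The second contrast asks how macrophages of VAT and SAT differ at 24 months. Gpnmb and Trem2 showed the largest differences of the members, and both were higher in each VAT library than in each SAT library. Gpnmb was 1145 ± 676 CPM in VAT against 86.6 ± 61.6 CPM in SAT, with a log2 fold change of 3.95 (SE 0.67), and Trem2 was 138 ± 38.9 against 19.0 ± 13.7 CPM (SD, n = 2 each), with a log2 fold change of 2.58 (SE 0.53). Lgals3 had a log2 fold change of 1.12 (SE 0.40), Cd63 of 0.94 (SE 0.45), Lipa of 0.84 (SE 0.45), Cd9 of 0.34 (SE 0.41) and Spp1 of -0.46 (SE 1.13).

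None of the 7 was called by edgeR, where 0.0792% of the 7572 genes were, and 3 of them had an unadjusted p under 0.05, namely Trem2 (0.000334), Gpnmb (5.43e-05) and Lgals3 (0.0159). Gpnmb lay at the threshold, with an adjusted p of 0.051, and Trem2 had an adjusted p of 0.23. DESeq2 called Gpnmb alone of the members (adjusted p = 7.32e-06) and 0.0792% of all genes. Without the filter on low counts edgeR called Gpnmb and Trem2, but the share of all genes that this fit called was not counted. Without VAT replicate 2, which held the reproductive tract nuclei, Gpnmb was at 3.34 (adjusted p = 0.0053 in edgeR, where 0.189% of genes were called), Trem2 at 2.32, Cd63 at 1.13, Lipa at 1.01, Lgals3 at 0.99, Cd9 at 0.74 and Spp1 at -1.57 (none of these 6 called), and without VAT replicate 1 Gpnmb was at 4.48 (adjusted p = 0.00063) and Trem2 at 2.76 (adjusted p = 0.034), where 0.627% of genes were called. Without SAT 24 months replicate 1 or 2 the adjusted p of Gpnmb was 0.21 and 0.89. With a replicate block edgeR called Gpnmb (4.05, adjusted p = 0.027), though no label ties same-numbered libraries to 1 mouse. The share of all genes called was not counted for the blocked fit.

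**Figure D3:**
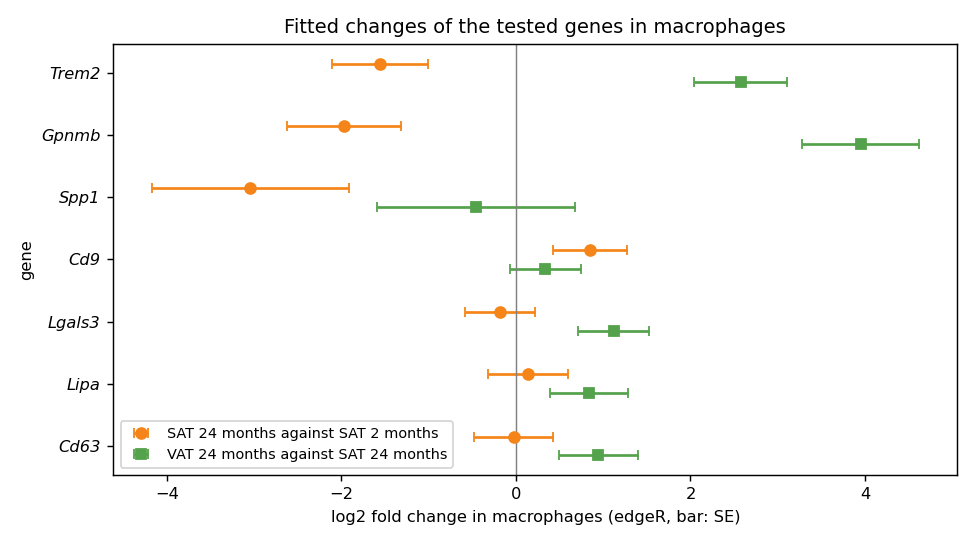
Log2 fold change in macrophages of the 7 members tested, for SAT at 24 against 2 months and VAT against SAT at 24 months, with bars of 1 standard error from the edgeR fit. Gpnmb and Trem2 lie below 0 in the first contrast and above it in the second, and the bars of Spp1 are the widest.

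Both contrasts use the SAT libraries at 24 months, so a low value there moves them in opposite directions. Set side by side, the fitted values were -1.97 and 3.95 for Gpnmb, -1.56 and 2.58 for Trem2, and -0.18 and 1.12 for Lgals3. The macrophages of SAT at 24 months rested on the fewest nuclei, 61 in replicate 1. Markers of other cells in the macrophage sums also differed between libraries: the 9 adipocyte markers, all detected in each library, summed to 738 and 572 CPM in macrophages of 2-month SAT, 725 and 1729 CPM in 24-month SAT, and 1421 and 559 CPM in VAT, against 13242 to 15857 CPM in adipocytes, and the steroidogenic markers summed to 346 CPM in VAT replicate 2, with no more than 18.6 CPM elsewhere. The 7 mesothelial markers, 2 to 6 of them detected per library, summed to 32.1 and 31.0 CPM in macrophages of 2-month SAT, 37.2 and 11.97 CPM in 24-month SAT, and 96.1 and 280 CPM in VAT, with VAT above all SAT libraries, against 3790 to 4240 CPM in mesothelial nuclei of VAT. Their part in these results was not tested.

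Counts summed over a class can come from few nuclei, and for Spp1 they did. Its 893 macrophage UMIs were in 31 of 1031 nuclei, with 541 of them, or 60.6%, in 1 nucleus and 809 (90.6%) in 5 nuclei. That nucleus, of SAT 2 months replicate 1, held 6043 UMIs in all, in a library whose macrophage nuclei had a median of 1577 UMIs. Of the Spp1 UMIs in macrophages, 662 were in 3 nuclei of SAT 2 months replicate 1, 69 in 2 nuclei of replicate 2, 102 in 4 nuclei of SAT 24 months replicate 2, and 16 and 44 in 7 and 15 nuclei of VAT. In each SAT library with Spp1 1 nucleus held most of the UMIs (541 of 662, 68 of 69 and 79 of 102), and in VAT no nucleus held more than 12.

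Gpnmb showed this pattern in SAT but not in VAT. In SAT it was found in 7, 7, 3 and 5 macrophage nuclei per library, and the highest nucleus alone held 85 of 125 and 53 of 78 UMIs at 2 months. In VAT it was found in 30 and 57 nuclei, of which the highest held 26 of 229 and 44 of 441 UMIs. With the highest nucleus of each library left out, Gpnmb was at 146 and 60.7 CPM in 2-month SAT, 28.9 and 14.6 CPM in 24-month SAT, and 595 and 1489 CPM in VAT. VAT was still above SAT, and Spp1 fell to 441 and 2.43, 0 and 55.8, and 35.1 and 118 CPM.

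**Figure D4:**
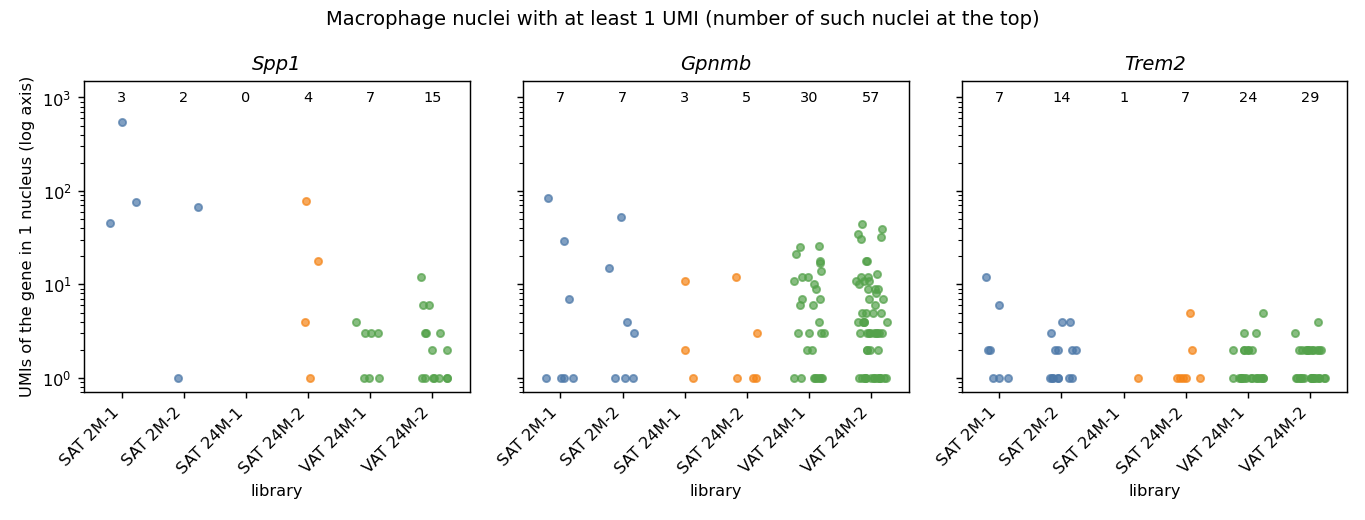
UMIs of Spp1, Gpnmb and Trem2 in single macrophage nuclei by library, on a log axis, where each point is a nucleus with at least 1 UMI of the gene. The nucleus with 541 Spp1 UMIs stands alone in SAT 2 months replicate 1, and the VAT libraries show many nuclei with Gpnmb at up to 44 UMIs.

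To compare shares of nuclei at an equal depth, each macrophage nucleus was thinned to 1000 UMIs. Gpnmb was then found in 4.05% and 1.79% of macrophage nuclei in SAT at 2 months, 3.28% and 1.78% in SAT at 24 months, and 11.96% and 31.5% in VAT (14.4% and 34.5% unthinned). The exact 95% binomial intervals were 7.89% to 17.1% and 24.5% to 39.2% for the VAT libraries and reached at most 11.3% in any SAT library. Trem2 was found in 3.38% and 3.59%, 0% and 1.78%, and 6.22% and 13.9%, and Spp1 in 2.03% and 0.897%, 0% and 1.33%, and 0.957% and 7.27%. For Gpnmb and Trem2 both VAT libraries exceeded both SAT libraries at 24 months (p = 0.33 in a two-sided exact permutation test, and no smaller p can be had from 2 libraries against 2). Spp1 overlapped between these groups when thinned (exact permutation p = 0.67) but not unthinned, at 0% and 1.78% in SAT and 3.35% and 9.09% in VAT (exact permutation p = 0.33).

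Nuclei with several members at once were counted next, and both VAT libraries exceeded all SAT libraries, a difference that was not tested. At 1000 UMIs per nucleus, 3 or more of the 9 genes were found in 2.70% and 1.35% of macrophage nuclei in SAT at 2 months, 1.64% and 3.11% in SAT at 24 months, and 10.0% and 22.4% in VAT. Among the other nuclei the share was 0.108% to 0.736%. At least 1 member was found in 50.5% of all macrophage nuclei and 22.3% of all other nuclei. Over libraries the macrophage share ranged from 36.1% to 66.1%, with a mean of 49.3%, and that of the other nuclei from 19.1% to 28.3%.

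Members were read together in single nuclei, mostly in VAT. At 1000 UMIs per nucleus over all libraries, 23 of 53 macrophage nuclei with Trem2 (43.4%) also held Gpnmb, which 9.02% of macrophage nuclei did, and 18 of 22 with Spp1 (81.8%) held it. Of 93 nuclei with Gpnmb, 54 (58.1%) held Lgals3 and 33 (35.5%) Lipa. Within single libraries, 13 of 23 Trem2 nuclei of VAT replicate 2 and 7 of 13 of VAT replicate 1 held Gpnmb. In SAT this was 1 of 5 and 0 of 8 at 2 months and 0 of 0 and 2 of 4 at 24 months, so it rests on few nuclei there. The pairs share depth and library, so these shares are given without a test.

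The macrophage nuclei fell into 4 sub-clusters, which are described without a test because the clusters were made from the same nuclei. The second largest, with 369 nuclei, was led by Spp1, Ttn, Gpnmb, St6galnac3 and Trpm2 in pooled sums, although the members had not been used for clustering. The place of Spp1 leans on SAT 2 months replicate 1, whose 662 Spp1 UMIs, 541 of them in 1 nucleus, were all in that sub-cluster. The largest, with 446 nuclei, was led by Lyve1, Cd209f and Cd163, known from resident macrophages around vessels, the third (163 nuclei) by Lyz1, Fn1 and Ccr2, known from monocytes and cells derived from them, and the fourth (53 nuclei) by Saa3, Marco and Prg4. Gpnmb, Cd9 and Lgals3 were higher in the second than in the other macrophages in 6 of 6 libraries, and Trem2, Lipa, Cd63 and Spp1 in 5 of 6. Without batch correction its leading genes fell into separate clusters. Spp1, Gpnmb and Atp6v0d2 led 185 nuclei there, and Trpm2, Ttn and Timd4 led 198. Looser filters on nuclei also set these genes apart. With doublets removed, or at a first resolution of 1.0, the same cluster was led by genes of both.

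Within the second sub-cluster, which some other clusterings split as given above, Gpnmb was found far more often in VAT than in SAT nuclei. Gpnmb was at 865 and 347 CPM there in SAT at 2 months, 359 and 184 CPM in 24-month SAT, and 2342 and 2986 CPM in VAT, and it was found in 8.57% and 6.14%, 15% and 8.89%, and 52.3% and 59.2% of these nuclei. Atp6v0d2 and Timd4 were picked after their values were seen. Atp6v0d2, a subunit of the proton pump of lysosomes, was found in 1.43% and 1.75%, 20% and 6.67%, and 61.4% and 46.1%. Timd4, a receptor for dying cells, ran the other way, in 44.3% and 48.2%, 35.0% and 17.8%, and 0% and 3.95%. Most nuclei of the sub-cluster held Gpnmb in VAT and few did in SAT, so its share of macrophages, 47.3% and 51.1%, 32.8% and 20%, and 21.1% and 46.1%, does not count Gpnmb nuclei.

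**Figure D5:**
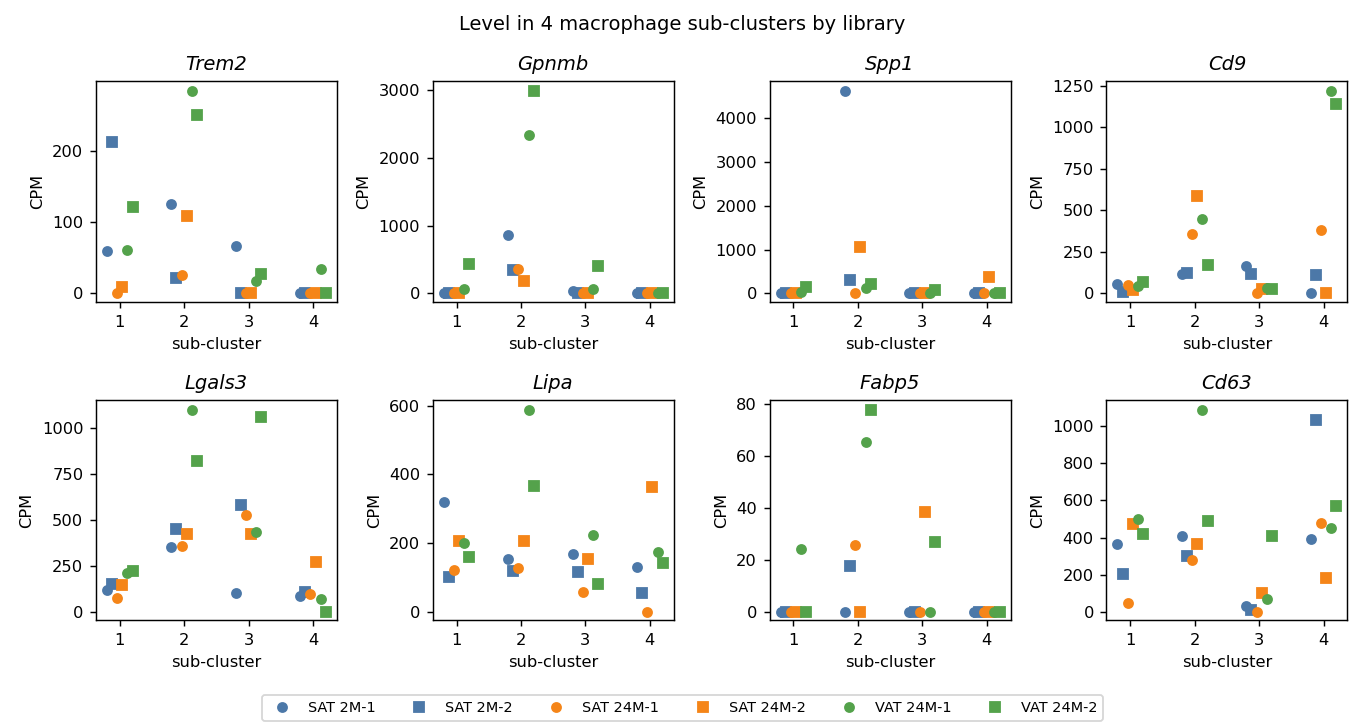
Level of 8 members in the 4 macrophage sub-clusters by library, in CPM of summed counts. In VAT, Gpnmb reaches 2342 and 2986 CPM in the second sub-cluster, and in SAT at 2 months the high Spp1 value of 4615 CPM in that sub-cluster belongs to replicate 1.

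Ttn, a gene of striated muscle, was among the leading genes of the second sub-cluster and was found in 41.4% and 50% of its nuclei in SAT at 2 months, 45% and 20% in SAT at 24 months, and 0% and 10.5% in VAT. The 7 skeletal muscle markers, Ttn included, summed to 1030 and 924 CPM in macrophages of SAT at 2 months, 214 and 177 CPM in 24-month SAT, and 17.5 and 206 CPM in VAT. Of the 836 UMIs of these markers 758 were Ttn, 53 Ryr1, 20 Neb, 2 each Myh4 and Actn3, 1 Ckm and 0 Myh1. Ttn made up 280 of 289 and 371 of 388 in SAT at 2 months, 20 of 23 and 47 of 74 in SAT at 24 months, and 1 of 6 and 39 of 56 in VAT. In SAT 2 months replicate 2 and VAT replicate 2 the sum was above that in the skeletal muscle class of the same library, 121 and 138 CPM. Whether this bears on the members was not tested.

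Other genes of the same pathways were read in macrophages from lists fixed by name. Over all 7572 genes, 12.97% had an unadjusted p under 0.05 in the first contrast and 5.16% in the second. In SAT at 24 against 2 months and in VAT against SAT, edgeR called 0 genes of every list. Leaving out VAT libraries changed this: without VAT replicate 2 it called 5 lipid handling, 1 resident macrophage and 1 monocyte gene in SAT with age and 1 lysosome gene in VAT against SAT, and without VAT replicate 1 the counts were 4, 1, 1 and 1. Those fits called 3.2% and 2.99% of all genes in the first contrast and 0.189% and 0.627% in the second. Of the TREM2 signalling list, 7 of 8 genes were tested, with medians of 0.10 and -0.09 on the log2 scale and 0 genes with an unadjusted p under 0.05. Tyrobp, the adaptor of TREM2, was at 246 and 117 CPM in 2-month SAT, 158 and 330 CPM in 24-month SAT, and 259 and 199 CPM in VAT. Its groups overlapped, with log2 fold changes of 0.60 (SE 0.48) and -0.09 (SE 0.47), unlike the receptor itself.

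The lysosome list had 17 of 18 genes tested, with medians of -0.25 and 0.22. With single libraries left out these ranged from -0.71 to 0.0031 and from 0.07 to 0.50. In the first contrast 2 genes had an unadjusted p under 0.05 and were lower, and in the second 2 were higher. Atp6v0d2, picked after its values were seen, was at 10.7 and 31.0, 102 and 31.1, and 521 and 497 CPM, with a log2 fold change of 3.27 (SE 0.55) in VAT against SAT and the adjusted p of Gpnmb, 0.051 in edgeR. Without VAT replicate 2 it was at 3.43 (adjusted p = 0.0018 in edgeR), and without SAT 24 months replicate 2 at 2.43 (adjusted p = 0.89). All 4 MiT/TFE factors, which switch on lysosomal genes, were tested, with medians of 0.31 and 0.35 and 0 genes under an unadjusted p of 0.05.

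Of the 10 lipid handling genes, 3 were higher and 2 lower at an unadjusted p under 0.05 in SAT at 24 months, with a median of 0.37, and 1 (Soat1) was higher in VAT, with a median of 0.49. The 3 were Cd36, Fabp4 and Pparg, all known also as adipocyte genes, and the 2 were Abcg1 and Nr1h3, of cholesterol efflux. Cd36 was at 513 and 245 CPM in 2-month SAT, 1376 and 2758 CPM in 24-month SAT, and 2845 and 548 CPM in VAT. The adipocyte markers in macrophages, given above, were likewise highest in SAT 24 months replicate 2 and VAT replicate 1, and their part in this was not tested. The 6 osteopontin receptors tested had medians of 0.73 and -0.33 and 1 and 0 genes under an unadjusted p of 0.05. The 8 other lipid-associated macrophage genes had medians of 0.39 and 0.11, with 0 and 1 such genes. The monocyte list had 3 of 6 genes tested and medians of 0.33 and 0.36, with 1 lower gene and 0 genes at an unadjusted p under 0.05. Over all 7572 genes tested the medians were 0.0057 and 0.015. Most of these list medians changed sign when 1 library was left out. In the first contrast they ranged from -0.26 to 0.71 for lipid handling (lowest without SAT 24 months replicate 2), from 0.57 to 0.91 for osteopontin receptors, from -0.30 to 0.49 for the other lipid-associated macrophage genes, from -2.59 to 0.34 for monocyte genes and from -0.10 to 0.15 for TREM2 signalling. In the second they ranged from 0.07 to 0.60, -0.56 to 0.13, -0.12 to 0.70, -0.84 to 2.05 and -0.13 to 0.54 in the same order. Those of the MiT/TFE factors ranged from 0.02 to 0.44 and from 0.09 to 0.49.

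The 12 resident macrophage genes had medians of 0.12 and -0.53, and at an unadjusted p under 0.05 there were 1 higher and 3 lower in the first contrast and 1 lower in the second. Mrc1, the mannose receptor, was at 1465 and 938 CPM in 2-month SAT, 1971 and 2933 CPM in 24-month SAT, and 2288 and 883 CPM in VAT, with log2 fold changes of 1.12 (SE 0.53, adjusted p = 0.40 in edgeR) and -0.55 (SE 0.52). With single libraries left out the medians ranged from -0.80 to 0.57 and from -1.56 to 0.18, and without VAT replicate 2 the second value of Mrc1 was 0.01. Lyve1, a hyaluronan receptor, was at 577 and 410, 205 and 776, and 373 and 66.2 CPM. SAT at 24 months overlapped with both other groups, and VAT lay below 2-month SAT.

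Cd5l, a secreted protein of tissue macrophages that the pattern search below also names, differed between the groups. It is among the 10 leading genes of the fourth sub-cluster, where Trem2 was lower than in the other macrophages in 6 of 6 libraries. Cd5l was at 103 and 181 CPM in macrophages of SAT at 2 months, 0 and 0 CPM in 24-month SAT, and 201 and 247 CPM in VAT. The groups did not overlap between SAT at 24 months and the others, and edgeR called Cd5l, which was singled out after its values were seen, in both contrasts (adjusted p = 0.026 and 0.0058). The second call held without VAT replicate 2 (adjusted p = 6.2e-05 in edgeR) and was lost without SAT 24 months replicate 2 (adjusted p = 0.63), and the first was lost without SAT 24 months replicate 2 (adjusted p = 0.57) or SAT 2 months replicate 2 (adjusted p = 0.11). No fold is given, since both SAT libraries at 24 months held 0 UMIs.

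In the sum of all nuclei, as a bulk sample would show, fewer cells of a type and less RNA per cell cannot be told apart, and members come from several classes. In VAT 38 of 96 and 45 of 113 Trem2 UMIs were in macrophages, with 14 and 31 in mesothelial nuclei, and in SAT at 24 months 14 of 60 and 18 of 134 Gpnmb UMIs were in macrophages. Macrophages made up 3.22% and 3.86% of nuclei in SAT at 2 months, 2.45% and 4.78% in SAT at 24 months, and 4.71% and 3.25% in VAT. Gpnmb was at 18.9 and 15.2 CPM, 11.4 and 11.7 CPM, and 42.8 and 54.7 CPM in these groups, and Trem2 at 3.76 and 3.44, 2.28 and 1.57, and 8.96 and 11.1 CPM. For both genes VAT lay above SAT, and SAT at 24 months below SAT at 2 months, without overlap.

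The edgeR fit of VAT against SAT at 24 months gave log2 fold changes of 2.10 for Gpnmb (SE 0.31, adjusted p = 0.17) and 2.44 for Trem2 (SE 0.47, adjusted p = 0.28). Of the 8 members tested 0 were called, where 0.0138% of the 21729 genes tested were, and 4 had an unadjusted p under 0.05, with Gpnmb and Trem2 higher and Cd9 and Lipa lower. DESeq2 called 3 of them, Trem2, Gpnmb and Cd9, and 2.4% of all genes. An unadjusted p under 0.05 was found for 7.63% of all genes. Without VAT replicate 2 edgeR called Gpnmb (adjusted p = 0.042) and Cd9 (adjusted p = 0.046), with 1.63% of all genes, and without VAT replicate 1 it called Gpnmb (adjusted p = 0.028), with 4.02%. In SAT at 24 against 2 months 0 members and 0% of 21729 genes were called. Only Fabp5 had an unadjusted p under 0.05 (log2 fold change 2.28, SE 0.76), which 8.26% of all genes had. DESeq2 called 0 members there.

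Cd9 and the number of epithelial nuclei were both lower in VAT in these sums. Cd9 was at 369 and 293 CPM in 2-month SAT, 333 and 266 CPM in 24-month SAT, and 61.8 and 143 CPM in VAT, and the epithelial class had 105 to 214 nuclei in each SAT library and 6 and 9 in VAT. Spp1 in all nuclei was at 69.6 and 8.56, 3.80 and 10.3, and 1.77 and 7.94 CPM, with its highest value in the library that held the nucleus of 541 UMIs.

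Members were also read in the stromal cells. In FAPs, Gpnmb was at 43.6 and 56.9 CPM in 2-month SAT, 203 and 189 CPM in 24-month SAT, and 164 and 30.2 CPM in VAT. The SAT groups did not overlap and lay in the opposite order to macrophages, with a log2 fold change of 1.97 (SE 0.71, adjusted p = 0.41 in edgeR) at 24 against 2 months. Cd9 was at 205 and 203, 584 and 531, and 296 and 138 CPM, with a log2 fold change of 1.47 (SE 0.48, adjusted p = 0.37 in edgeR).

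In FAPs 0 of the 5 members tested and 0% of 8263 genes were called in either contrast, and 2 members in each had an unadjusted p under 0.05, namely Gpnmb and Cd9 (both higher) in SAT with age and Cd9 and Lipa (both lower) in VAT against SAT, beside 10.4% and 5.93% of all genes. DESeq2 called 0 in both. Leaving out either VAT library brought a call of Gpnmb in SAT with age (adjusted p = 0.025 and 0.014 in edgeR), where 1.37% and 2.09% of genes were called. Without VAT replicate 1, Gpnmb in VAT against SAT went from -0.92 to -2.71 (adjusted p = 0.0052) and Cd9 to -2.04 (adjusted p = 0.015), with 5.11% of genes called. FAPs of VAT replicate 2 carried less of their own markers, which summed to 4375 CPM there and to 12091 to 27429 CPM in the other libraries.

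In adipocytes, the lipid-storing cells themselves, 14.4% of 12893 genes were called in SAT at 24 against 2 months and 0 of the 6 members tested. Cd9 was closest, with a log2 fold change of -1.17 (SE 0.39, adjusted p = 0.064), followed by Fabp5 with 1.95 (SE 0.96, adjusted p = 0.20), and Cd9 was the only member with an unadjusted p under 0.05, which 30.2% of all genes had. In VAT against SAT 0.132% of genes were called, and 0 members, of which 0 had an unadjusted p under 0.05. DESeq2 called 0 members in either contrast. As group means Trem2 was at most at 2.74 CPM and Gpnmb at most at 6.42 CPM in adipocytes, beside 0.885 and 8.22 CPM in T cell nuclei.

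Endothelial nuclei held 169 Fabp5 UMIs, of which 24 were outside SAT 24 months replicate 2. Fabp5 was listed at 0 CPM in both SAT libraries at 2 months, where 3 UMIs would be 42.3 and 59.7 CPM, at 39.2 and 90.9 CPM in 24-month SAT, and at 48.5 and 5.62 CPM in VAT, and it did not pass the filter on low counts. In this class 0.0498% of 6026 genes were called in SAT with age and 0% in VAT against SAT, with 0 of the 4 members tested in each and 0 at an unadjusted p under 0.05 or by DESeq2.

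Genes whose level ran most like a member's were sought over 61 sums of a class in a library, with Pearson's r of log2(CPM + 10) among 14805 genes. The sums share libraries, depth and cell types, so r is a description. Gpnmb was most like Rab3il1 (0.87), Abca9 and Snx24 (both 0.75), Trem2 most like Asgr2 (0.82), Cd5l and Ms4a7 (both 0.78), and Spp1 most like Il1a (0.84), Ms4a14 (0.83) and Bach2os (0.82). Lgals3 and Lipa shared 2 of their 3 genes, Cd300lb and Ccl9, at 0.78 to 0.81.

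Cd9 was most like Hspa1b (0.78), Eps8 and Stx3 (both 0.75), Cd63 like Sbf2 (0.79), Anxa4 (0.78) and Marcks (0.77), and Fabp5 like Gm10123, Ubd (both 0.67) and Ftl1-ps1 (0.65). Ctsd did not reach the level that the rule asks of a gene. Among the members themselves, Lgals3 and Lipa had the highest r, 0.73, followed by Trem2 and Gpnmb with 0.71 and Trem2 and Spp1 with 0.67, while Trem2 and Cd9 were at -0.0037.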

How the data were processed

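The deposited values are UMI counts, 1 per gene and barcode, and were not normalized. The authors, by their methods, captured nuclei with the Singleron GEXSCOPE kit, sequenced them on an Illumina instrument and counted reads with Celescope against GRCm39; the version and the gene annotation are not given in the sources used here. The labels' description names 10x Genomics instead. As in the study, a nucleus was kept above 500 genes and 1000 UMIs and below 15% of mitochondrial UMIs. Clustering (Python 3.11.15, scanpy 1.11.5, leidenalg 0.10.2) used 1000 variable genes, without the 9 members and mitochondrial genes, 30 principal components, a Harmony correction by library written for this work, and Leiden at a resolution of 2.0, with immune nuclei clustered again at 1.0. A cluster took the name of a fixed marker list when at least 3 of its markers were over 2-fold, and names are candidate identities from RNA alone. Scrublet marked 0.133% of nuclei as doublets, too few for a working caller, and they were kept.

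Counts were summed per library and class and tested with edgeR 4.0.16 (R 4.3.3; quasi-likelihood, TMM, filterByExpr, all 3 groups in 1 fit, Benjamini-Hochberg over all genes tested, two-sided). DESeq2 1.42.0, other scalings and filters, other clusterings and each library left out were the alternatives. Tests and clustering were checked on simulated data. Members are all described; other genes are named where called in lists fixed by name, at most 4 per list, with Tyrobp, Mrc1 and Lyve1 always, and as the 3 genes most like each member or as leading genes of a sub-cluster. No list gene was called, and Atp6v0d2, Timd4, Cd5l and the lipid handling genes were named after their values were seen. The members and lists were chosen with earlier results of these data known. Replicates of a group differed beyond sampling noise (chi-square per degree of freedom of 15.8 to 191). Intervals and limits cover counting error only. Positions and 250-base windows come from GRCm39 with the GENCODE annotation.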

Additional observations from a re-analysis of the deposited data

How the results depend on the processing

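Over the alternatives that kept all libraries of a contrast, 101 counts and shares of members stayed within 1.5 times the values above (shares within their spread) and 16 moved. Most of these counts were 0 in the fits above, and a 0 that stayed 0 was taken as the same, so this tally says little about robustness. Without the filter on low counts, edgeR called 2 members in all nuclei for SAT with age (Spp1, Fabp5), 2 for VAT against SAT (Trem2, Gpnmb), 2 in macrophages in each contrast (Gpnmb and Spp1, then Trem2 and Gpnmb), 1 in adipocytes and 1 in endothelial nuclei for SAT with age (both Fabp5). DESeq2 called 3 in all nuclei and 1 in macrophages for VAT against SAT. In macrophages, Gpnmb in VAT against SAT was the 1 call with library-size scaling, with doublets removed and at a first resolution of 1.0. Library-size scaling called 1 member in adipocytes for SAT with age (Cd9), and no batch correction 1 in FAPs for SAT with age (Gpnmb). The share of all genes called was not counted for these fits other than DESeq2, so their calls have no background beside them. The adjusted p of Gpnmb in macrophages of VAT against SAT ranged from 1.63e-10 without the filter to 1.0 with looser filters on nuclei (log2 fold change 2.82). It was 0.25 with the 5% of nuclei with the highest Scrublet scores removed and 0.056 with a mixed cluster counted as macrophages, both chosen after seeing the data.

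With single libraries left out, which in a group of 2 assumes that the lone library varies like the others, the counts ranged from 0 to 2 in all nuclei for VAT against SAT, 0 to 1 and 0 to 2 in macrophages, 0 to 1 in adipocytes and FAPs for SAT with age, 0 to 2 in FAPs for VAT against SAT, and 6 to 7 for macrophages against other nuclei. In adipocytes without SAT 24 months replicate 1 the call was Fabp5, and without replicate 2 it was Cd9. The share of macrophage nuclei with at least 1 member, 49.3%, ranged from 46.0% to 52.0% and was 61.0% without thinning.

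Directions that turned were those of values not called. For SAT with age in macrophages, removing the highest Scrublet scores gave -0.022 for Cd9 and -0.018 for Lipa, and Cd63 was at 0.34 with looser filters, 0.012 with doublets removed and 0.0029 with the mixed cluster. Spp1 in VAT against SAT was at 3.33 without the highest Scrublet scores and 0.090 without batch correction. The difference in the share of nuclei with Fabp5 for SAT with age was -0.448 percentage points thinned and 0.369 not thinned. With libraries left out, ranges crossed 0 for Lgals3 (-0.51 to 0.18), Lipa (-0.59 to 0.60) and Cd63 (-0.85 to 0.40) in SAT with age, and for Spp1 (-1.57 to 7.92) and Cd9 (-0.21 to 0.74) in VAT against SAT. The cause was not tested.

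The depots may share mice, but no label says which libraries do, so the numbers were not taken as pairs: the correlation of their deviations from the group means was -0.38, 0.26 and -0.47 over all nuclei and -0.16, 0.04 and -0.11 in macrophages. With a replicate block, edgeR called 1 member in macrophages for VAT against SAT (Gpnmb, 4.05, adjusted p = 0.027) and 1 in adipocytes for SAT with age (Cd9), and 0 in the other contrasts. The share of all genes called was not counted for these blocked fits.

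With 2 libraries per group, 61 to 225 macrophage nuclei per library and few UMIs of most members, the precision in macrophages was limited, and a p above the threshold does not show that levels were alike. Ctsd and Fabp5 could not be tested there, and a level in 1 library may rest on 1 nucleus. The trial of nuclei by Scrublet scores removed 1259 nuclei, after which Spp1 was no longer tested between macrophages and other nuclei.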
